A study of Homo sapiens with 12 samples.

Results

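The 10 genes described here belong to the BCL2 family: the pro-survival genes BCL2, BCL2A1, BCL2L1 and MCL1, the effectors BAX and BAK1, and the BH3-only genes BID, BCL2L11, BBC3 and PMAIP1. They were listed by name, with earlier results of these data known. All 10 were found among the 40173 gene IDs of the expression table and passed the filter on low values, which left 12773 gene IDs to test. RNA was sequenced from 624Mel, an established human melanoma cell line, in 4 conditions with 3 libraries each. siCTRL cells carried a non-targeting siRNA and no IFNγ, siCTRL + IFNγ cells the same siRNA and 5 ng/mL IFNγ for 24 h, siMITF cells an siRNA against MITF and no IFNγ, and siMITF + IFNγ cells both. IFNγ was added 24 h after transfection, and all 4 conditions went through transfection. MITF, the master transcription factor of the melanocyte lineage, was silenced with 1 siRNA in 1 cell line, and off-target effects of that siRNA cannot be told apart from loss of MITF. The values are TPM, transcript abundances that are relative within a library and corrected for transcript length.

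Proteins of the BCL2 family decide whether the outer membrane of the mitochondrion stays intact. BAX and BAK1 open pores in it, the pro-survival proteins hold them and the BH3-only proteins in check, and the BH3-only proteins relay stress by occupying the pro-survival proteins or by activating BAX and BAK1 directly. In the melanocyte lineage BCL2A1 and BCL2 are known MITF targets, and BCL2A1 is known as a lineage survival gene of melanoma. IFNγ is a cytokine of T cells and natural killer cells whose response includes the transcription factor IRF1.

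The treatments were visible in their direct readouts. MITF fell by 2.29 on the log2 scale with siMITF and by 2.14 in the presence of IFNγ, and IRF1 rose by 4.66 with IFNγ in siCTRL and by 5.25 in siMITF cells. All 8 melanocytic marker genes had means of at least 2 TPM in every condition, but their summed TPM was lower with siMITF. The sum was 7959 to 9412 TPM in siCTRL and 7275 to 9753 TPM in siCTRL + IFNγ libraries. In siMITF and siMITF + IFNγ libraries it was 2327 to 2627 and 2149 to 2677 TPM. BCL2A1 is also a gene of blood cells, and the 8 leucocyte markers summed to 2.36 to 5.87 TPM, mostly LYZ, with CD3E at 0 in all libraries and PTPRC at no more than 0.732 TPM. Of the keratinocyte markers KRT10 was well expressed, at 38.9 to 60.8 TPM, while KRT1 was at 0 and KRT5 and KRT14 at no more than 0.0721 TPM. Fibroblast markers summed to 2.34 to 8.49 TPM and endothelial markers to less than 1 TPM. Mitochondrially encoded genes took 7.42 to 12.7% of the TPM in the replicate 2 libraries and 12.8 to 16.9% in the other libraries. Beside each comparison it is stated where leaving those genes out changed the call of a member.

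Promoters are shown for BCL2A1 and BID, the members that fell with siMITF, and for BAX. BAX did not pass that test and has the most copies of CACGTG, an E-box that MITF is known to bind. RefSeq windows (GRCh38.p14, 250 bases before to 50 after a start) were matched by symbol for 9 of the 10 genes. They were searched on both strands for the E-boxes CACGTG and CATGTG and for GAAANNGAAA, the letters of an interferon-stimulated response element. Of all 35116 windows 7.26% held CACGTG, 11.1% CATGTG and 3.57% GAAANNGAAA. The 250 bases before the start are printed 5′ to 3′ on the strand of the gene, with matches in capitals, for BCL2A1 (chr15:79971197-79971446, minus strand), for 1 of the 5 BID windows (chr22:17774043-17774292, minus strand) and for BAX (chr19:48954625-48954874, plus strand).
BCL2A1: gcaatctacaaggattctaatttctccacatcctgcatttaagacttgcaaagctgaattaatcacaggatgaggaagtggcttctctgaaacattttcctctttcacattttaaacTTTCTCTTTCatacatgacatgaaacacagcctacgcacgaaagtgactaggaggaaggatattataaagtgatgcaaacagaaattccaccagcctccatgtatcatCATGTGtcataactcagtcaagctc
BID: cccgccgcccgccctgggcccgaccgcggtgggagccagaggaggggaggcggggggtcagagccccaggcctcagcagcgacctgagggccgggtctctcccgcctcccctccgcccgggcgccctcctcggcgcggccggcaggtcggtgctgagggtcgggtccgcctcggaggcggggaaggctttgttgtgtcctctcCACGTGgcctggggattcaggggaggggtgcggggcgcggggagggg
BAX: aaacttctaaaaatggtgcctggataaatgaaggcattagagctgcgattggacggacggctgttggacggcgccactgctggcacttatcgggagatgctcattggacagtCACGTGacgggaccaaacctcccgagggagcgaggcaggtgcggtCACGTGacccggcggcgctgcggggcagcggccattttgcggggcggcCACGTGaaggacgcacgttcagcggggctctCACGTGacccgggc

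The BCL2A1 window held CATGTG 25 bases before the start and GAAANNGAAA, on the other strand, at 133 bases. The BID window held CACGTG at 47 bases before its start, and the BAX window held CACGTG at 138, 93, 45 and 14 bases. An overlapping BID window held the same CACGTG, another one held CATGTG, and the remaining BID windows held no match. BBC3 was the only other member with a match, with CACGTG and a pair of overlapping GAAANNGAAA. A match to these letters is a description of the sequence, and binding was not measured.

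Among the pro-survival genes, BCL2A1 (ENSG00000140379, chr15:79960892-79971196, GRCh38), encoding BFL-1, stood at 21.0, 24.5 and 20.5 TPM in siCTRL libraries 1, 2 and 3 and at 6.58, 7.16 and 5.58 TPM in siMITF. With IFNγ the values were 21.4, 23.3 and 21.5 TPM in siCTRL and 7.42, 7.39 and 6.30 TPM in siMITF. The siMITF libraries were low with and without IFNγ, did not overlap the siCTRL libraries, and in neither siRNA arm did the IFNγ libraries separate from the untreated ones.

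MCL1 (ENSG00000143384, chr1:150560895-150579738), a short-lived pro-survival protein, was the most abundant member in every condition. It stood at 94.2, 108.9 and 100.3 TPM in siCTRL, 106.5, 138.5 and 128.1 TPM in siCTRL + IFNγ, 112.4, 115.6 and 110.2 TPM in siMITF, and 138.2, 148.3 and 148.3 TPM in siMITF + IFNγ. The siMITF libraries lay just above the siCTRL libraries, and the siMITF + IFNγ libraries lay above both untreated conditions but overlapped siCTRL + IFNγ. BCL2L1 (ENSG00000171552, chr20:31664452-31723989), which encodes BCL-XL, ranged from 40.6 to 53.3 TPM and BCL2 (ENSG00000171791, chr18:63123346-63320128) from 5.82 to 11.8 TPM over the 12 libraries, with overlap between all conditions.

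Of the effectors, BAX (ENSG00000087088, chr19:48954815-48961798) stood at 87.8, 99.9 and 87.1 TPM in siCTRL, 89.3, 99.4 and 77.7 TPM in siCTRL + IFNγ, 94.0, 97.2 and 89.3 TPM in siMITF and 75.9, 83.6 and 73.7 TPM in siMITF + IFNγ. The siMITF + IFNγ libraries were below all libraries of both untreated conditions. BAK1 (ENSG00000030110, chr6:33572547-33580293) stood at 43.9, 47.7 and 44.7 TPM in siCTRL and 43.4, 46.3 and 45.9 TPM in siMITF, against 49.9, 62.4 and 57.4 TPM in siCTRL + IFNγ and 52.0, 62.4 and 63.4 TPM in siMITF + IFNγ. Every library with IFNγ was above every library without it. The processed pseudogenes BAK1P1 and BAK1P2 were at no more than 0.131 TPM.

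BID (ENSG00000015475, chr22:17734138-17774770), a BH3-only protein that is cleaved by caspase-8 and by granzyme B, stood at 36.3, 36.1 and 33.0 TPM in siCTRL and 28.8, 33.6 and 26.4 TPM in siCTRL + IFNγ. In siMITF it was 8.03, 10.9 and 10.7 TPM, and in siMITF + IFNγ 10.6, 12.6 and 10.4 TPM. As for BCL2A1, the siMITF libraries were all low and stood apart from all siCTRL libraries.

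PMAIP1 (ENSG00000141682, chr18:59899996-59904305) encodes NOXA, which binds MCL1 and BFL-1. It stood at 13.6, 16.3 and 13.6 TPM in siCTRL, 22.8, 27.0 and 23.3 TPM in siCTRL + IFNγ, 21.7, 20.9 and 20.7 TPM in siMITF and 33.7, 32.3 and 29.6 TPM in siMITF + IFNγ. The siCTRL libraries were the lowest, those with both treatments the highest, and no conditions overlapped. BBC3 (ENSG00000105327, chr19:47220822-47232766), which encodes PUMA, stood at 5.98, 6.22 and 5.37 TPM in siCTRL, 5.63, 5.73 and 5.17 TPM in siCTRL + IFNγ, 7.96, 8.56 and 7.69 TPM in siMITF and 5.02, 6.07 and 6.52 TPM in siMITF + IFNγ. Only the siMITF libraries without IFNγ stood apart, above the rest. BCL2L11 (ENSG00000153094, chr2:111119378-111168444), which encodes BIM, ranged from 6.44 to 13.3 TPM and overlapped between all conditions.

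MITF knockdown without IFNγ lowered BCL2A1 and BID and raised PMAIP1 and BBC3. BCL2A1 went from 22.0 ± 2.18 to 6.44 ± 0.798 TPM (SD, n = 3), a log2 difference of -1.63 (SE 0.107) on log2(TPM + 1), a scale that understates the change of low genes. BID went from 35.1 ± 1.87 to 9.86 ± 1.60 TPM (SD, n = 3), a log2 difference of -1.74 (SE 0.125). In the bulk RNA fewer cells expressing a gene and less RNA per cell cannot be told apart. By limma with Benjamini-Hochberg adjustment over all tested genes, the adjusted p was 1.9e-07 for BCL2A1 and 4.0e-07 for BID. The rises were smaller, with 0.52 (SE 0.0959, adjusted p 0.00113) for PMAIP1 and 0.40 (SE 0.104, adjusted p 0.00906) for BBC3, both by limma.

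In this comparison 2 of the 10 members passed upward and 2 downward, where 21.0% of all tested genes passed upward and 13.8% downward. BCL2A1 and BID also passed all 3 thresholds of the study, an adjusted p under 0.05, an absolute log2 difference of at least 1 and at least 2 TPM, which 6.10% of tested genes passed. The study applied its thresholds to DESeq2 results. Here they were applied to limma on log2(TPM + 1), so the calls are not those of the study. The median log2 difference was 0.01 over the members and 0.06 over all tested genes. BCL2, a known MITF target as well, had a log2 difference of -0.09 with a 95% interval of -0.49 to 0.32 (limma adjusted p 0.762), and BCL2L1 one of -0.05 with an interval of -0.29 to 0.20. MCL1 missed the test at 0.16 with an interval of -0.04 to 0.36 (limma adjusted p 0.214), although its 3 siMITF libraries were the higher ones. It passed with quantile normalization (adjusted p 0.0318) and with libraries centred on their median (adjusted p 0.047). BAX, BAK1 and BCL2L11 had intervals of -0.17 to 0.24, -0.22 to 0.20 and -0.21 to 0.47.

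With IFNγ in both arms, MITF knockdown again lowered BCL2A1 and BID and raised PMAIP1. BCL2A1 went from 22.0 ± 1.06 to 7.03 ± 0.640 TPM (SD, n = 3), a log2 difference of -1.52 (SE 0.107, limma adjusted p 3.9e-07). BID went from 29.6 ± 3.66 to 11.2 ± 1.21 TPM, a log2 difference of -1.32 (SE 0.125, limma adjusted p 5.1e-06). PMAIP1 went from 24.4 ± 2.29 to 31.9 ± 2.09 TPM, a log2 difference of 0.37 (SE 0.0959, limma adjusted p 0.00942), and this call was lost when only the libraries of these 2 conditions entered the fit (adjusted p 0.0501). The siMITF + IFNγ libraries of all 3 genes stood apart from those of siCTRL + IFNγ, a description with no share of all tested genes taken. So 1 member passed upward, against 18.4% of tested genes, and 2 passed downward, against 14.7%. BCL2A1 and BID passed all 3 thresholds, against 5.68%.

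MCL1, BCL2L11 and BAX missed the test in that comparison, and their call depended on the fit. Their log2 differences were 0.23 (interval 0.03 to 0.43, limma adjusted p 0.0785), 0.39 (interval 0.05 to 0.74, adjusted p 0.0751) and -0.18 (interval -0.39 to 0.02, adjusted p 0.16). With the replicate number as a block, since libraries with the same number deviated together, 6 members passed instead of 3, adding MCL1 (adjusted p 0.0135), BCL2L11 (0.00798) and BAX (0.0214). The share of all tested genes that passed with the block was not taken, so this count shows nothing particular to the members. MCL1 and BCL2L11 also passed without siCTRL + IFNγ replicate 2 (adjusted p 0.0225 and 0.0166), the library of that condition with the lowest share of mitochondrial genes, BCL2L11 passed without siMITF + IFNγ replicate 1 (0.0376), and both passed with mitochondrially encoded genes left out (0.00946 and 0.0232). BCL2, BCL2L1, BAK1 and BBC3 had intervals of -0.60 to 0.22, -0.19 to 0.29, -0.14 to 0.28 and -0.15 to 0.30.

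**Figure D1:**
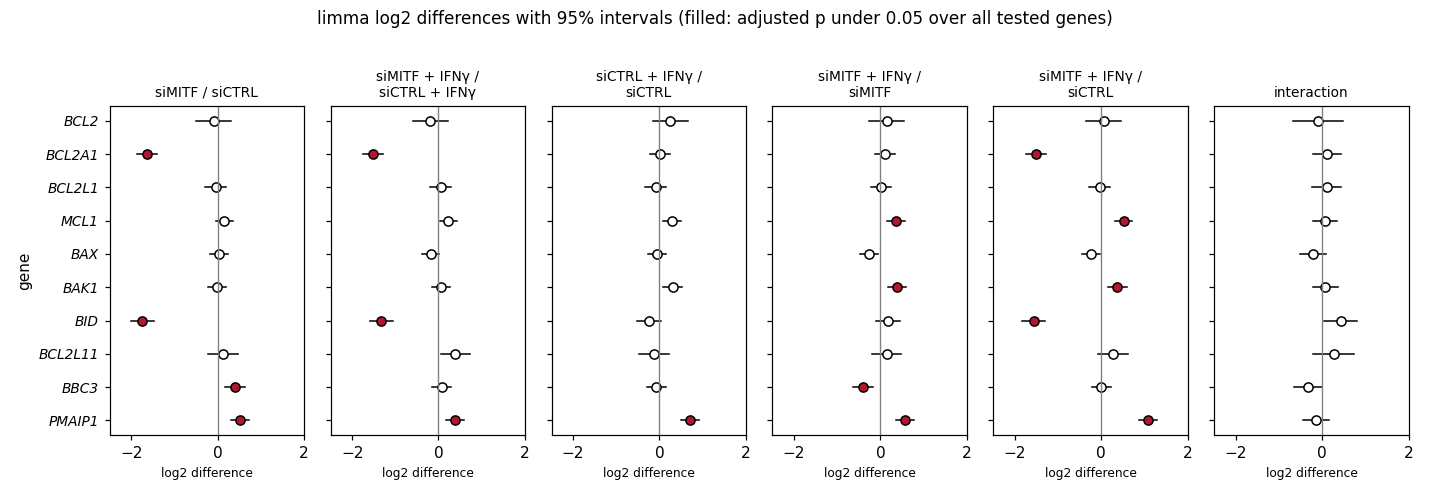
Log2 differences on log2(TPM + 1) (horizontal axes) of the 10 genes in the 5 comparisons and the interaction, with 95% intervals from limma. Filled points have an adjusted p under 0.05. BCL2A1 and BID lie below -1 in all 3 comparisons of siMITF with siCTRL arms, and PMAIP1 is filled in all 5 comparisons.

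IFNγ in siCTRL cells raised PMAIP1, from 14.5 ± 1.58 to 24.4 ± 2.29 TPM (SD, n = 3), a log2 difference of 0.71 (SE 0.0959, limma adjusted p 2.4e-04). BCL2A1 was at 22.0 TPM in both conditions, with a log2 difference of 0.01 and an interval of -0.23 to 0.24 (limma adjusted p 0.981). PMAIP1 was the 1 member that passed upward, where 6.80% of tested genes did, none passed downward, where 6.14% did, and none passed all 3 thresholds, which 2.52% passed. At an unadjusted limma p under 0.05 there were 3 members, the others being MCL1 and BAK1, with no share of all tested genes taken at that level.

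MCL1 and BAK1 lay at the edge of the test in siCTRL cells. MCL1 had a log2 difference of 0.29 (interval 0.09 to 0.49, limma adjusted p 0.0585) and BAK1 one of 0.31 (interval 0.09 to 0.52, adjusted p 0.0591). Both passed with the replicate block (adjusted p 0.00682 and 0.005), which made 3 members of 10, with no share of all tested genes taken under the block. They passed with mitochondrially encoded genes left out as well (0.00588 and 0.00939). Both also passed without siCTRL + IFNγ replicate 1, the lowest library of its condition for both genes (0.00531 and 0.0191), and BAK1 without siMITF + IFNγ replicate 1 (0.0268). BID had a log2 difference of -0.25 with an interval of -0.52 to 0.03. BAX, BCL2, BCL2L1, BCL2L11 and BBC3 had adjusted p of 0.449 or higher.

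IFNγ in siMITF cells raised PMAIP1, MCL1 and BAK1 and lowered BBC3. PMAIP1 went from 21.1 ± 0.522 to 31.9 ± 2.09 TPM (SD, n = 3), a log2 difference of 0.57 (SE 0.0959, limma adjusted p 0.00111). MCL1 went from 112.7 ± 2.67 to 144.9 ± 5.82 TPM, a log2 difference of 0.36 (SE 0.0920), and BAK1 from 45.2 ± 1.59 to 59.3 ± 6.31 TPM, a log2 difference of 0.38 (SE 0.0971), each with a limma adjusted p of 0.0159. BBC3 went from 8.07 ± 0.443 to 5.87 ± 0.772 TPM, a log2 difference of -0.41 (SE 0.104, limma adjusted p 0.0157), and its libraries then overlapped those of siCTRL. For these 4 genes the libraries with and without IFNγ did not overlap, and the share of all tested genes that separate so was not taken.

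The count of 3 upward compares with 7.99% of tested genes, the 1 downward with 12.2%, and no member passed all 3 thresholds, which 2.95% of genes passed. At an adjusted p under 0.01 only PMAIP1 was left, and each of the other calls was lost in some fits with a library left out. Over all alternatives the log2 difference was 0.34 to 0.42 for MCL1, 0.33 to 0.47 for BAK1 and -0.47 to -0.31 for BBC3. The lowest limma adjusted p among them was 4.9e-05, 5.6e-05 and 0.0038. MCL1 missed the test without siMITF replicate 1 or 3 (adjusted p 0.0517 and 0.0578), BBC3 without siMITF replicate 2 or siMITF + IFNγ replicate 1 (0.073 and 0.0526), and BAK1 without siMITF replicate 1 or siMITF + IFNγ replicate 2 or 3 (0.0641, 0.0568 and 0.0561). BAX had a log2 difference of -0.26 with an interval of -0.47 to -0.06 and missed the test (limma adjusted p 0.0696), with all siMITF + IFNγ libraries the lower ones. It passed with the replicate block (0.00427), without mitochondrially encoded genes (0.0336), in a fit of these 2 conditions alone (0.0481) and without siCTRL + IFNγ replicate 2 (0.041). BCL2A1 had a log2 difference of 0.11 with an interval of -0.12 to 0.35, and BID one of 0.18 with an interval of -0.10 to 0.45.

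Both treatments together, against siCTRL cells, lowered BCL2A1 and BID and raised PMAIP1, MCL1 and BAK1. The log2 difference was -1.52 (SE 0.107, limma adjusted p 1.9e-07) for BCL2A1 and -1.57 (SE 0.125, adjusted p 6.0e-07) for BID. PMAIP1 went from 14.5 ± 1.58 to 31.9 ± 2.09 TPM (SD, n = 3), a log2 difference of 1.09 (SE 0.0959, limma adjusted p 1.5e-06), the only comparison in which it passed a log2 difference of 1. MCL1 was higher by 0.52 (SE 0.0920, limma adjusted p 6.1e-04) and BAK1 by 0.37 (SE 0.0971, adjusted p 0.00773) on the log2 scale. The comparison shares the siCTRL libraries with the siMITF and IFNγ comparisons above, so their errors are not independent.

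In the combination 3 members passed upward, where 21.1% of tested genes did, 2 downward, where 23.4% did, and 3 passed all 3 thresholds, where 8.75% did. BBC3 had a log2 difference of 0.00 with an interval of -0.23 to 0.22. BAX at -0.23 (interval -0.44 to -0.03) and BCL2L11 at 0.27 (interval -0.07 to 0.62) missed the test with limma adjusted p of 0.0632 and 0.180, and both passed with the replicate block (0.00453 and 0.0388). BAX also passed with mitochondrially encoded genes left out (0.0371), without siCTRL + IFNγ replicate 2 or 3 (0.0374 and 0.0439) and without siMITF + IFNγ replicate 2 (0.0481). BCL2 and BCL2L1 had intervals of -0.35 to 0.46 and -0.28 to 0.21.

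Whether the log2 effect of IFNγ differed between siMITF and siCTRL cells was tested by the interaction term, and none of the 10 members passed, also with the replicate block, against 0.947% of tested genes. At an unadjusted limma p under 0.05 there were 2, with no share of all tested genes taken at that level. BID had an interaction of 0.42 (interval 0.04 to 0.81, p 0.0342, adjusted p 0.578), its values with IFNγ being lower in siCTRL and higher in siMITF cells. BBC3 had an interaction of -0.33 (interval -0.65 to -0.01, p 0.0423, adjusted p 0.620). For PMAIP1, which passed with each treatment, the interaction was -0.14 with an interval of -0.44 to 0.15, and for BCL2A1 it was 0.11 with an interval of -0.22 to 0.44.

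TPM are per transcript length, so the make-up of the family can be described within a library. In siCTRL libraries MCL1 made up 56.1 ± 0.646% of the summed TPM of the 4 pro-survival genes (SD, n = 3), BCL2L1 27.5 ± 0.639%, BCL2A1 12.2 ± 0.541% and BCL2 4.14 ± 0.152%. BCL2A1 made up 11.6 to 12.7% in siCTRL, 10.4 to 12.2% in siCTRL + IFNγ, 3.30 to 3.90% in siMITF and 2.91 to 3.84% in siMITF + IFNγ libraries. The MCL1 share was 55.4 to 56.7%, 60.6 to 61.9%, 63.0 to 66.0% and 68.5 to 71.6% in the same order, without overlap between conditions. Shares within a set are tied together, so a fall of BCL2A1 alone lifts the MCL1 share. With siMITF alone MCL1 itself missed the test (limma adjusted p 0.214). The summed pro-survival TPM itself was 180.1 ± 12.2 in siCTRL and 174.2 ± 7.99 in siMITF, with overlapping libraries.

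Among the 6 pro-apoptotic genes the BID share was 16.7 to 18.5% in siCTRL, 13.3 to 14.2% in siCTRL + IFNγ, 4.33 to 5.79% in siMITF and 5.33 to 6.0% in siMITF + IFNγ. The PMAIP1 share was 6.92 to 7.53% in siCTRL, 11.2 to 11.7% in siCTRL + IFNγ, 10.7 to 11.7% in siMITF and 15.1 to 18.0% in siMITF + IFNγ. At the same IFNγ status the BID share was lower and the PMAIP1 share higher in every siMITF library than in every siCTRL library. These shares are descriptions of RNA, with no test, and a fall of BID alone lifts the PMAIP1 share.

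The order of the mean levels changed accordingly. In siCTRL cells it ran MCL1, BAX, BCL2L1, BAK1, BID, BCL2A1, PMAIP1, BCL2L11, BCL2 and BBC3, and the libraries of neighbours overlapped only for MCL1 with BAX and for BCL2L1 with BAK1. In siMITF cells BCL2A1 was the lowest of the 10 and BID was in place 7. There the libraries overlapped between each pair of neighbours from BCL2L11 through BID, BBC3 and BCL2 to BCL2A1, so their order is not beyond the spread. PMAIP1 was in place 5 in siMITF cells, apart from its neighbours BAK1 and BCL2L11. It was also in place 5 in siMITF + IFNγ cells, apart from its neighbours BCL2L1 and BCL2L11.

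Of 11 other family genes, 8 passed the filter on low values, and BCL2L10, BCL2L14 and BCL2L15 did not. With siMITF alone 3 of the 8 rose (BMF, BOK, BIK) and 2 fell (HRK, BCL2L13), where 21.0% of all tested genes passed upward and 13.8% downward, and BOK and BCL2L13 are named here after their values were seen. The BCL2L13 call (log2 difference -0.32, limma adjusted p 0.0415) was lost without any of the 3 siCTRL libraries, without siCTRL + IFNγ replicate 3 or without siMITF replicate 1 or 3 (adjusted p 0.0553 to 0.136), as well as with no filter on low values (0.0924) and no intensity trend (0.0525). BMF, a BH3-only gene, stood at 4.03, 5.26 and 5.21 TPM in siCTRL and 12.7, 13.3 and 12.8 TPM in siMITF, a log2 difference of 1.26 (SE 0.141, limma adjusted p 1.9e-05). HRK, another BH3-only gene, stood at 6.09, 7.13 and 6.26 TPM in siCTRL and 2.23, 2.25 and 1.86 TPM in siMITF, a log2 difference of -1.27 (SE 0.130, adjusted p 9.4e-06). For both genes the siMITF and siCTRL libraries did not overlap, again with no share of all tested genes taken. With IFNγ in both arms the log2 differences were 1.33 for BMF and -1.11 for HRK.

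BIK, a BH3-only gene of the endoplasmic reticulum, was low and was raised by each treatment. It stood at 1.66, 1.36 and 1.7 TPM in siCTRL, 4.6, 4.0 and 4.40 TPM in siCTRL + IFNγ, 2.83, 2.98 and 2.76 TPM in siMITF and 3.92, 5.13 and 4.30 TPM in siMITF + IFNγ. Its log2 difference was 1.05 (SE 0.108, limma adjusted p 1.9e-05) for IFNγ in siCTRL cells, 0.59 (adjusted p 0.00111) for siMITF and 0.49 (adjusted p 0.00652) for IFNγ in siMITF cells. The interaction was -0.56 (interval -0.89 to -0.23, limma adjusted p 0.165). In the combination BMF was at 1.33, BIK at 1.08 and HRK at -1.60 on the log2 scale against siCTRL, and BOK (0.58) and BCL2L12 (-0.63) also passed, BOK not without siCTRL replicate 1 or siMITF + IFNγ replicate 3 (adjusted p 0.0738 and 0.0722). So 3 of the 8 passed upward and 2 downward, where 21.1% of all tested genes passed upward and 23.4% downward. BCL2L12 shares its locus with IRF3 on the opposite strand and the library kit did not keep strand, so reads of the 2 genes cannot be told apart where they overlap.

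With IFNγ in siCTRL cells 1 of the 8 rose (BIK) and 2 fell (BCL2L12, HRK), and in siMITF cells 1 rose (BIK) and 1 fell (BCL2L12). Of all tested genes 6.80% passed upward and 6.14% downward in siCTRL cells, and 7.99% and 12.2% in siMITF cells. With the replicate block BCL2L13 rose as well (log2 difference 0.19 in each, adjusted p 0.0474 in siCTRL and 0.0354 in siMITF cells), which made 2 upward in each comparison, and it also passed upward in both with quantile normalization (0.0093 and 0.00356) and centring (0.00916 and 0.00373). The fall of HRK in siCTRL cells (log2 difference -0.49, limma adjusted p 0.028) was lost when any of siCTRL replicates 1, 2 and 3 or siCTRL + IFNγ replicates 1 and 3 was left out (adjusted p 0.0543, 0.115, 0.0669, 0.091 and 0.101), with a pseudocount of 0.1 (0.0622) and with no filter (0.0754). The fall of BCL2L12 there (-0.34, adjusted p 0.0202) was lost without siCTRL replicate 1 or 2 or siCTRL + IFNγ replicate 3 (0.0558, 0.0849 and 0.0991) and in a fit of these 2 conditions alone (0.0589).

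Other listed genes of the mitochondrial pathway were counted in the same way. With siMITF alone 21.0% of all tested genes passed upward and 13.8% downward. Of 9 genes of the mitochondrial apoptosis machinery 1 rose (HTRA2, log2 difference 0.41) and 1 fell (XIAP, an inhibitor of caspases, -0.97). CYCS, which encodes cytochrome c, and APAF1, DIABLO, CASP9, VDAC2, AIFM1 and ENDOG did not pass in the main fit. CASP9 passed upward with quantile normalization (adjusted p 0.0441), centring (0.0363) and the replicate block (0.0447). CYCS passed downward with the block (0.032), in a fit of these 2 conditions (0.0231) and without siMITF + IFNγ replicate 1 (0.0408). Among transcription factors known to act on BH3-only genes E2F1 (0.50) and FOXO1 (0.50) rose, and the FOXO1 call was lost without siCTRL replicate 1 or siMITF replicate 2 (limma adjusted p 0.0587 and 0.0537). Of 5 regulators of MCL1 or BIM protein DYNLL2 rose (0.45) and DYNLL1 fell (-0.20), the latter lost without siCTRL replicate 1 or any of the 3 siMITF libraries (adjusted p 0.145, 0.0805, 0.0959 and 0.0755) and also with quantile normalization (0.108), centring (0.136), mitochondrially encoded genes left out (0.0534) and no intensity trend (0.0667). HUWE1 passed upward with mitochondrially encoded genes left out (adjusted p 0.0364), quantile normalization (0.0114), centring (0.0165) and the replicate block (0.0212). With the replicate block 4 machinery genes and 4 protein regulators passed, and among the transcription factors FOXO3 (0.26, adjusted p 0.0376) and DDIT3 (-0.35, adjusted p 0.0158) passed in addition. The genes of these lists are named after their values were seen, and the share of all tested genes passing with the block was not taken.

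With IFNγ in siCTRL cells, where 6.80% of all tested genes passed upward and 6.14% downward, HTRA2 (log2 difference -0.22) was the only machinery gene to pass, and among the transcription factors ATF4 (-0.29) passed, both lower. None of the 5 protein regulators passed by limma, also at an unadjusted p under 0.05 and with the replicate block. With the block 2 machinery genes and 3 transcription factors passed, again all lower, with no share of all tested genes taken. The genes named for this comparison were also picked after their values were seen. CYCS also passed downward with mitochondrially encoded genes left out (adjusted p 0.0402) and with quantile normalization (0.041). HTRA2 and ATF4 lost their calls without any of the siCTRL or siMITF libraries or siCTRL + IFNγ replicate 1 or 3, and also without siMITF + IFNγ replicate 2 (both) or 3 (ATF4), with adjusted p of 0.0533 to 0.202. HTRA2 also lost it with quantile normalization (0.117), centring (0.095) and a fit of these 2 conditions (0.15), and ATF4 with a pseudocount of 0.1 (0.0501), no filter (0.112), no trend (0.076) and a fit of these 2 conditions (0.13).

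The tested genes most like each of the 3 members that passed all thresholds were found by Pearson's r of log2(TPM + 1) over the 12 libraries. For BCL2A1 they were ASAH1 (r 0.997), LYST (0.996) and GPNMB (0.995). For BID they were LYPD3 (0.991), GPR137B (0.990) and MEA1 (0.989), and for PMAIP1 SERPINB8 (0.986), RETREG1 (0.980) and TNFRSF1A (0.980). The points share conditions and libraries, and these were the highest among all tested genes, so the values are a description of likeness.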

How the data were processed

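The authors trimmed reads of TruSeq RNA v2 libraries, a kit that does not mark strand, with Trimmomatic, quantified transcripts with kallisto on Ensembl GRCh38 and deposited gene-level TPM. The Ensembl release and the tool that summed transcripts are not given in the sources used here. Depth is not kept in TPM, so no counting error is given. GENCODE 44 gave symbols to 30114 of 40173 gene IDs. Values were taken as log2(TPM + 1), and limma 3.58.1 (R 4.3.3) was fitted to all 12 libraries, with 1 coefficient per condition and an intensity trend, over the 12773 IDs that averaged 2 TPM or more in some condition. Tests were two-sided with Benjamini-Hochberg adjustment. The study states independent biological replicates. An exact permutation test of 3 against 3 cannot go below 0.1. Where libraries are said to stand apart, this is a description, and how many of all tested genes do so was not counted. The 10 members, the gene lists and the tests were chosen with earlier results of these data known. Genes of the lists given were counted, and those with an adjusted p under 0.05 and an absolute log2 difference of at least 1 were to be named. Other list genes, short of these thresholds, are named after their values were seen.

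After subtraction of condition means, the 18 pairs of libraries with the same replicate number correlated at 0.102 to 0.625 across genes and the 36 other pairs at a median of -0.20, so the numbers were taken to pair the libraries, and a paired fit took the replicate number as a block. The fitting code was first tested on simulated libraries. Other settings tried were a pseudocount of 0.1 or 0.5, no filter, an overall mean of 5 TPM or more, quantile normalization, centring of libraries, omission of mitochondrially encoded genes, no trend, fits of 2 conditions, the block, TPM summed by symbol, an adjusted p under 0.01 and each library left out. No library pair had identical values. Some listed genes and counts of their lists are not reported here. Python 3.11.15 was used for summaries and plots.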

Additional observations from a re-analysis of the deposited data

How the results depend on the processing

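The 60 log2 differences of the 10 genes were recomputed under 24 alternatives, which gave 1430 values, of which 1381 kept their call, 11 lost it, 38 gained it and none reversed a called direction. In several alternatives the log2 differences could not move. Among these were the stricter adjusted p, TPM summed by symbol and omission of a library outside the conditions compared. The absence of reversals was therefore partly fixed in advance. Among differences called in neither fit, 35 values lay on the other side of 0. The falls of BCL2A1 and BID with siMITF kept their call under every alternative, with log2 differences of -1.76 to -1.54 and -1.83 to -1.62 without IFNγ. For siMITF + IFNγ against siCTRL + IFNγ, 3 members passed, and 5 passed with quantile normalization, with centring of libraries or without mitochondrially encoded genes, 6 with the replicate block, and 3 to 5 when a library was left out. For IFNγ in siCTRL cells 1 member passed, and 3 passed with quantile normalization, centring, no mitochondrially encoded genes or the replicate block, and 1 to 3 with a library left out. For IFNγ in siMITF cells 4 members passed, 1 at an adjusted p under 0.01, and 2 to 5 with a library left out, the 2 without siMITF replicate 1. The block changed no other call of a member than those given beside the results. The cause of these changes was not tested. Shares of all tested genes were taken for the main fit only, so counts under the alternatives have none beside them and show nothing particular to the listed genes. The median of all genes moved by less than 0.1 between scalings. TPM keep no depth, so the error of low genes such as BIK, BBC3 and BCL2 is known only from the spread of 3 libraries.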
